A study of Mus musculus with 4 samples.

Results

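The heat shock protein and DnaJ genes are the mouse genes on the array whose symbol starts with Hspa, Hspb, Hsph, Hsp90 or Dnaj, together with Hspd1, Hspe1, Hsf1, Hsf2 and Bag3. Of 19938 genes named by the array annotation, 74 met this rule, and 58 of them lay among the 11255 genes bright enough to be tested. Where a gene had more than 1 transcript cluster (a set of probes read as 1 transcript), the cluster with the highest mean value stood for it. Hsf1 and Hsp90ab1 were not among the 74 and are not analysed here, and Hspa1b had only a cluster shared with its near-identical neighbour Hspa1a.

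RNA from whole skin of C57BL/6 mice was read on 4 single-colour arrays, 2 without and 2 with a Cre transgene under the promoter of keratin 5, a gene of basal keratinocytes. The mice lacking the transgene were CflarF/+;Tnfrsf1a+/- (no K5-Cre replicate 1) and CflarF/F;Tnfrsf1a+/- (no K5-Cre replicate 3). Both transgenic samples were CflarF/F;K5-Cre;Tnfrsf1a+/- (K5-Cre replicates 2 and 6), so every sample was heterozygous for the null allele of the TNF receptor 1 gene, and the transgene set the groups apart. Cflar encodes cFLIP, an inhibitor of caspase-8 in death receptor signalling. Age, sex, body site and batch are not given by the labels, nor is whether an array held 1 animal or a pool, so a p-value here speaks of the spread among these arrays, and that spread may be technical.

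Molecular chaperones bind unfolded proteins and help them reach or keep their shape. Members of the HSP70 family do this by a cycle of ATP use that J-domain (DnaJ) proteins start and nucleotide exchange factors reset, HSP90 acts later on partly folded clients, and small heat shock proteins hold unfolded chains without using ATP. Heat, oxidants and other insults release the transcription factor HSF1, which binds heat shock elements, arrays of the unit GAA in alternating orientation, and turns on the stress-inducible members. The endoplasmic reticulum and the mitochondrion have their own chaperones, and those of the endoplasmic reticulum are turned on by the unfolded protein response partly through the ER stress element. Several small heat shock proteins are abundant in muscle.

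Promoter sequences from the RefSeq table on build GRCm38.p6, which covers 250 bases before and 50 bases after each start site, were found for 61 of the 74 genes. The heat shock element was searched as 3 units without mismatch (GAA, any 2 bases, TTC, any 2 bases, GAA, or the same with GAA and TTC exchanged) and, more loosely, as a core of 2 units, GAANNTTC or TTCNNGAA. The search covered both strands, and each 3-unit match contains 2 cores. The 3-unit element was in a promoter of 4 of the 61 genes (6.56%), namely Dnajb6, Hspd1, Hspe1 and Hsph1, against 179 of 27025 genes in the whole table (0.662%). The 2-unit core was in 16 of the 61 (26.2%) against 17.0% of all genes, with 6 of the 8 stress-inducible genes and 3 of the 4 muscle small heat shock genes that have a promoter among them. The ER stress element, searched on both strands as CCAAT, any 9 bases, CCACG, was in Hspa5, Hsp90b1 and Dnajc3 (4.92% of the 61) against 0.137% of all genes. A match describes these letters only and is not evidence of binding. The stretches below are those of 2 stress-inducible genes that were higher with K5-Cre (Hspa1a and Hspb1) and 1 that was lower (Dnaja1), of a mitochondrial gene with the 3-unit element (Hspe1), of the muscle gene with the lowest difference (Hspb6) and of 2 endoplasmic reticulum genes. Each is given 5′ to 3′ on the gene's strand, with the matched element in capitals. Hspa1a (chr17:34972157-34972306, minus strand), Hspb1 (chr5:135887769-135887918, plus), Dnaja1 (chr4:40722318-40722467, plus), Hspe1 (chr1:55087998-55088147, plus), Hspb6 (chr7:30553151-30553300, plus) and Hspa5 (chr2:34771940-34772089, plus) are shown from 150 bases before the start site to the base before it. Hsp90b1 (chr10:86705515-86705664, minus) is shown from position -220 to -71 relative to its start, which takes in both of its matches.
Hspa1a: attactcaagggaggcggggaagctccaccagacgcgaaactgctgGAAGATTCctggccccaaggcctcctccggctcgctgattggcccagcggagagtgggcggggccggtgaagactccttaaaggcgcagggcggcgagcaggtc
Hspb1: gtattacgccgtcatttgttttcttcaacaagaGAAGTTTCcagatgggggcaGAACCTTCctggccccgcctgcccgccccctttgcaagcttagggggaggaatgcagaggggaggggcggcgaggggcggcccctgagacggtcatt
Dnaja1: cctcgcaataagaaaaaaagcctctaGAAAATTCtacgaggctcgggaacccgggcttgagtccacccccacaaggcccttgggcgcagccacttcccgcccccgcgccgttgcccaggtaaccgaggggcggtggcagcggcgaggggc
Hspe1: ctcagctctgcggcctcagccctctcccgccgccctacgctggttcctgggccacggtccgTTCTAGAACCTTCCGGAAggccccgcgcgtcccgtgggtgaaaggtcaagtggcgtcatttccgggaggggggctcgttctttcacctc
Hspb6: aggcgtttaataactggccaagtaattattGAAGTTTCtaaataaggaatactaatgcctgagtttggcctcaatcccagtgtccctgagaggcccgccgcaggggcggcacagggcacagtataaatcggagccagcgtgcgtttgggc
Hspa5: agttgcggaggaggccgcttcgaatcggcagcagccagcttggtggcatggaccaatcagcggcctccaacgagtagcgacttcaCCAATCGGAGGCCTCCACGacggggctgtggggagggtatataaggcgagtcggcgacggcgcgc
Hsp90b1: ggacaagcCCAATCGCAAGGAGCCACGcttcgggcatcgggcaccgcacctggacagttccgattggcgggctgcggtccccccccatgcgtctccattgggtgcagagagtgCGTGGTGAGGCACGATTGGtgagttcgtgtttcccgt
Hspa1a, Hspb1, Dnaja1 and Hspb6 were picked for their direction and for holding a heat shock element core. Their sharing of the core was thus set by the choice, and whether the core goes with a direction was not tested. In Hspe1 the capitals are a run of 4 units at chr1:55088059-55088076. Hspd1, the partner of Hspe1 in the mitochondrial folding chamber, is transcribed from the other strand of the same stretch, and the same run lies at -144 to -127 relative to its start.

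Levels are on the log2 scale as deposited, a difference is the K5-Cre mean minus the no K5-Cre mean, and the error after a difference is its standard error from limma (n = 2 arrays a group). A gene passed at a Benjamini-Hochberg adjusted p under 0.05 over the 11255 genes tested. Among all of these, 64% passed, 25.2% higher and 38.8% lower in K5-Cre, and for 86% no array of 1 group reached into the other (35.6% higher, 50.4% lower). Of the 58 heat shock protein and DnaJ genes, 9 rose (15.5%), 27 fell (46.6%) and 22 did not pass. Their median difference was -0.28, beside -0.14 over all genes tested, and the median of all 74 was -0.21. Among the 58 genes, 16 were higher and 33 lower on both K5-Cre arrays than on both others. In 6 tested members (Hspa4l, Hspb9, Hsf2, Hspa12a, Hspa12b and Dnajc2) 1 group's mean was below the brightness filter, so they entered the test through the other group. With either control left out, fewer of these genes passed, as did fewer of all genes tested. With either K5-Cre array left out, more of both passed. With each array shifted to the same median of the tested genes, the median of all genes tested moved from -0.14 to 0.05. Under that scaling 15 of these genes were higher and 17 lower, beside 3820 higher and 3326 lower of all genes tested. By class, the median difference was 0.27 for stress-inducible genes, 0.11 for the endoplasmic reticulum, -0.32 for constitutive cytosolic genes, -0.48 for mitochondrial genes and -1.55 for the muscle small heat shock genes, and the differences between classes were not tested.

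**Figure D1:**
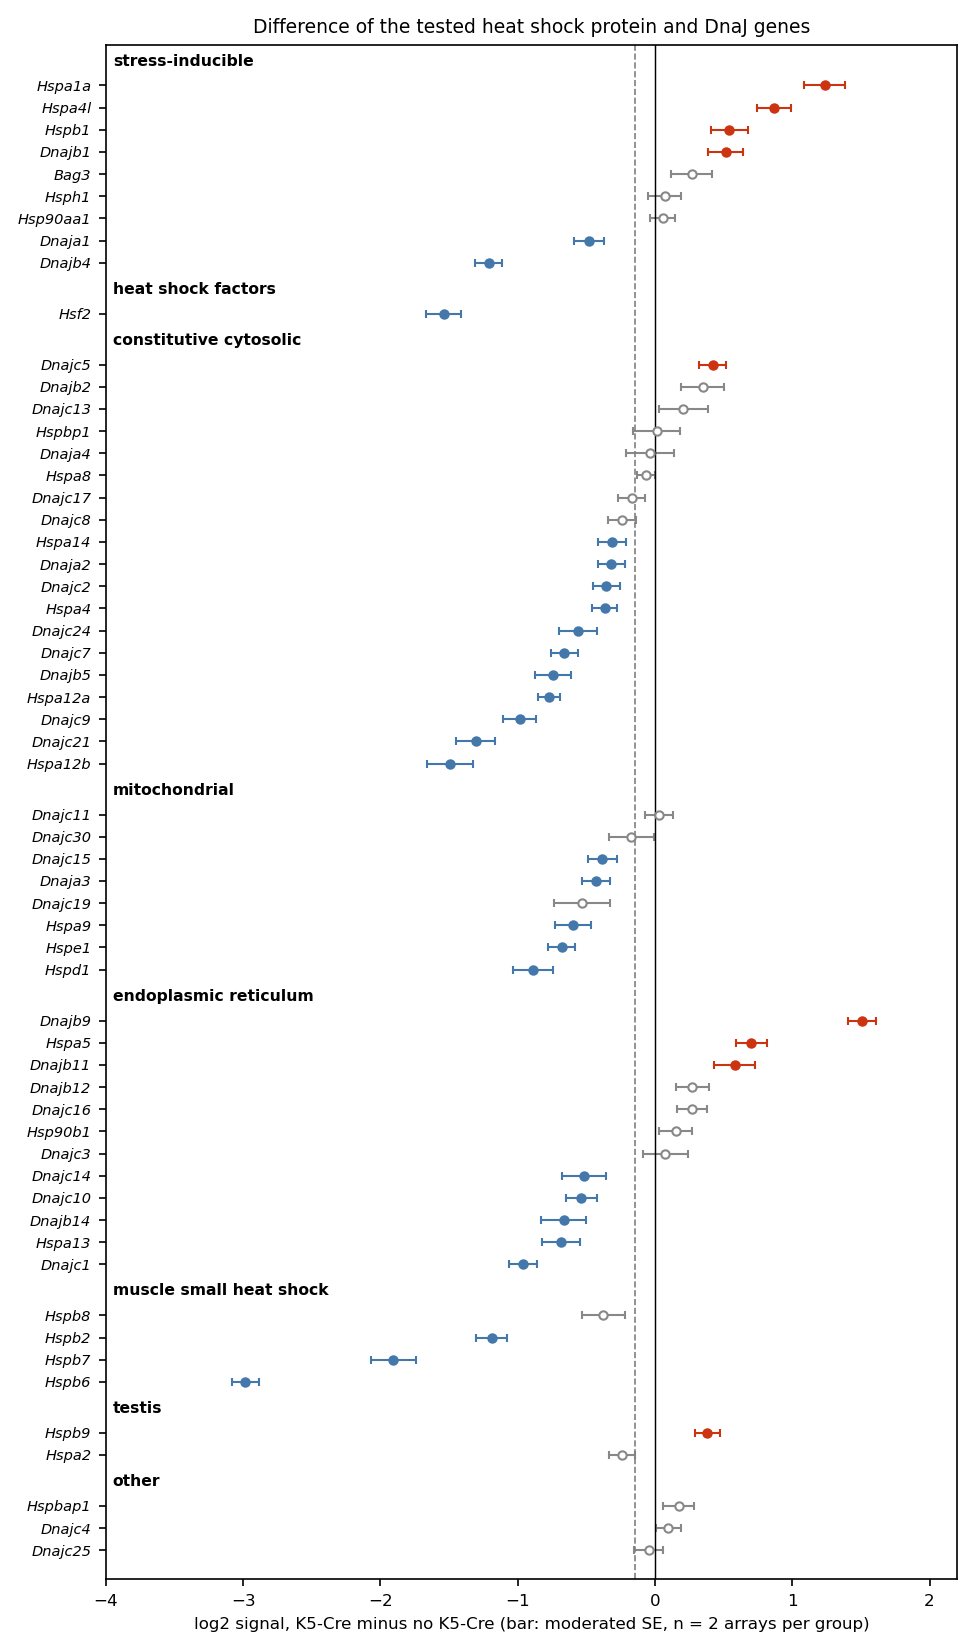
Log2 difference, K5-Cre minus no K5-Cre, for each tested heat shock protein and DnaJ gene by class, with standard errors (n = 2 arrays a group), filled points for genes that passed and a dashed line at the median of all genes tested. The muscle class lies lowest with a median of -1.55, and the stress-inducible class spans from -1.21 (Dnajb4) to 1.24 (Hspa1a).

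The markers of other cell types moved along with the groups. All 11 tested skeletal muscle markers fell with a median of -3.99 (-3.64 over all 14 named), and the mean of those 14 was 10.94 and 11.02 on the no K5-Cre arrays and 7.51 and 7.56 on the K5-Cre arrays, beside the filter level of 7.61. All 6 fibroblast markers (median -2.98) and all 5 tested adipocyte markers (-2.18) fell, as did 4 of 5 endothelial markers (-3.33), while all 6 tested neutrophil markers (5.75) and all 6 macrophage markers (2.72) rose. For 6 of the skeletal muscle, 4 of the adipocyte, 3 of the endothelial, 6 of the neutrophil and 2 of the macrophage markers, 1 group's mean was below the filter, so they were tested through the group where they were bright and their counts are no support for a direction. Untested Myh2 (-0.19) and Myh4 (-0.41) were dim on all arrays. Keratinocyte markers were bright on all arrays, with a list mean of 11.02 to 11.26 for basal and 12.73 to 13.26 for suprabasal markers, but single markers moved in both directions. Of 6 basal markers, Krt14 (1.36), Col17a1 (0.65) and Krt5 (0.30) rose and Krt15 fell (-2.84), and of 4 tested suprabasal markers Ivl rose (1.27). In whole skin, fewer cells of a type and less RNA per cell cannot be told apart, and the part of these shifts in the differences of the chaperone genes was not tested. The 3 Cflar clusters were 0.46 to 0.83 higher in K5-Cre, so they do not check the labels, and the loss of exons in keratinocytes alone was not measured here.

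The stress-inducible genes moved in both directions. Of the 9 tested, 4 rose (Hspa1a, Hspa4l, Hspb1 and Dnajb1), 2 fell (Dnajb4 and Dnaja1) and 3 did not pass (Bag3, Hsph1 and Hsp90aa1). These shares were 44.4% higher and 22.2% lower, beside 25.2% and 38.8% of all genes tested. Hspa1a, the classical heat-inducible HSP70, stood at 9.51 and 9.25 on no K5-Cre replicates 1 and 3 and at 10.74 and 10.50 on K5-Cre replicates 2 and 6. Both K5-Cre arrays were thus more than 0.9 above both others, a difference of 1.24 ± 0.15 or 2.36-fold (limma adjusted p = 0.00181). The cluster shared by Hspa1a and Hspa1b stood at 10.51, 10.42, 11.41 and 11.39 in the same order and was 0.93 ± 0.10 higher (adjusted p = 0.000929). Hspa4l, an HSP110-type exchange factor for HSP70, stood at 7.61 and 7.58 without and 8.61 and 8.32 with K5-Cre, 1.82-fold higher (0.87 ± 0.13, adjusted p = 0.00335).

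Hspb1 (HSP27), a small heat shock protein that is abundant in the epidermis, was at 11.72 and 11.62 without and at 12.38 and 12.05 with K5-Cre, a difference of 0.54 ± 0.13 (adjusted p = 0.0194). Dnajb1 (HSP40), the J-domain partner induced with HSP70, was at 8.78 and 8.85 against 9.46 and 9.20, a difference of 0.52 ± 0.13 (adjusted p = 0.0198). For both genes K5-Cre replicate 2 lay highest and no array of 1 group reached into the other. Neither passed when 1 control was left out: without no K5-Cre replicate 1 the adjusted p was 0.0922 for Hspb1 and 0.176 for Dnajb1, and without replicate 3 it was 0.135 and 0.126. Hspa1a and Hspa4l passed with each array left out.

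Bag3, an exchange factor that couples HSP70 to autophagy, was at 9.35 and 9.44 without and 9.84 and 9.48 with K5-Cre (0.27 ± 0.15, adjusted p = 0.177). Replicate 6 lay just above the controls, and without it the difference was 0.44. Hsph1 (HSP110) was at 9.06, 9.02, 8.99 and 9.23, with overlapping groups (0.07 ± 0.12, adjusted p = 0.644). Without K5-Cre replicate 2 its difference was 0.19 and without replicate 6 it was -0.05, so its sign rested on 1 array. Hsp90aa1, the inducible cytosolic HSP90, was at 10.93 and 10.89 against 10.95 and 10.98 (0.06 ± 0.09, adjusted p = 0.619).

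Dnajb4, a J-domain protein with the domain order of Dnajb1, was at 10.31 and 10.38 without and 9.13 and 9.14 with K5-Cre, 2.32-fold lower (-1.21 ± 0.10, adjusted p = 0.00059). The arrays of each group lay within 0.1 of each other. Dnaja1, a J-domain partner of HSP70 in the cytosol, was at 10.19 and 10.21 against 9.64 and 9.79 (-0.48 ± 0.11, adjusted p = 0.0137). It did not pass after leaving out no K5-Cre replicate 1 (adjusted p = 0.169) or 3 (0.173), nor with arrays at the same median of the tested genes (0.0539). A cluster that the annotation gives to both Dnaja1 and the microRNA gene Mir207 went the other way, 0.44 ± 0.10 higher in K5-Cre (adjusted p = 0.0128). It was numbered among genes of chromosome 4, where Dnaja1 lies, and had a mean of 10.88. The cluster that stood for Dnaja1 was dimmer (9.96) and numbered among genes of chromosome 5. A cluster of Dnaja1 alone on chromosome 4 was also lower (-0.51), so the direction of Dnaja1 depended on the cluster.

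**Figure D2:**
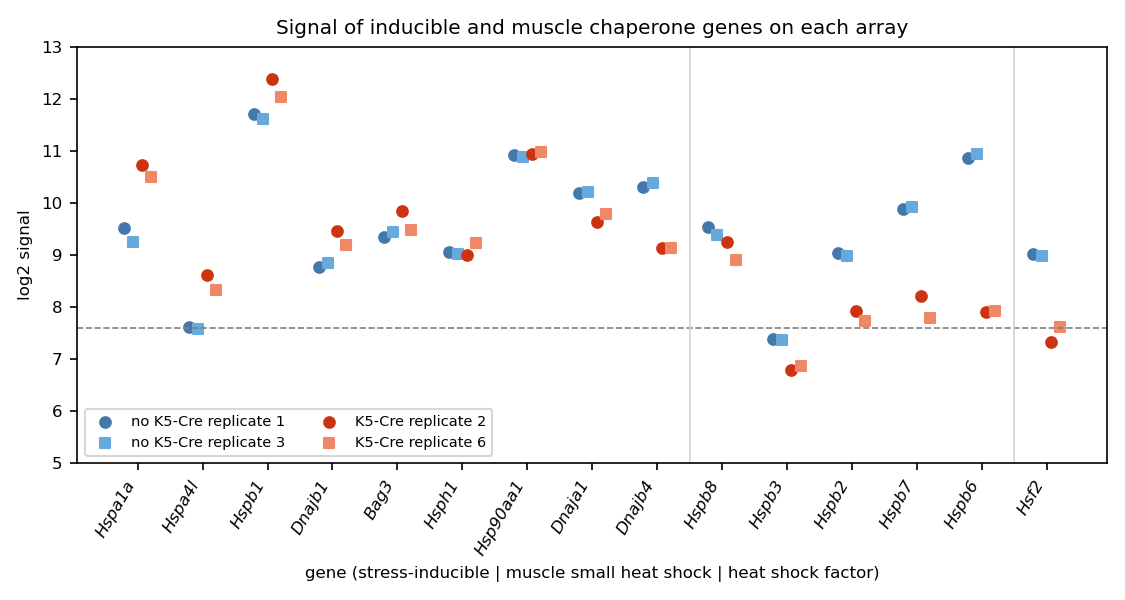
Deposited log2 signal (vertical axis) of the 9 stress-inducible genes, the 5 muscle small heat shock genes and Hsf2, with 1 point per array and the brightness filter of 7.61 as a dashed line. The K5-Cre arrays lie above the others for Hspa1a (10.74 and 10.50 against 9.51 and 9.25) and below them for Hspb6 (7.91 and 7.92 against 10.86 and 10.94).

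Hsf2, the heat shock factor linked to development rather than to acute heat, was the member of its class that was measured. It was at 9.03 and 8.98 without and 7.32 and 7.61 with K5-Cre, 2.90-fold lower (-1.54 ± 0.13, adjusted p = 0.000598). The K5-Cre mean of 7.47 lay below the brightness filter of 7.61. Hsf2 passed with each array left out.

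The small heat shock genes of muscle had the lowest class median, -1.55. Of the 4 tested, 3 fell (75%, beside 38.8% of all genes tested) and Hspb8 did not pass. Hspb6 (HSP20), which is abundant in skeletal, cardiac and smooth muscle, was at 10.86 and 10.94 without and 7.91 and 7.92 with K5-Cre, 7.92-fold lower (-2.98 ± 0.10, adjusted p = 7.25e-05). This was the lowest difference among the 58 genes. Hspb7, a muscle protein that binds filamin, was at 9.89 and 9.92 against 8.21 and 7.79, 3.75-fold lower (-1.91 ± 0.16, adjusted p = 0.000659). Hspb2, a partner of Hspb3 in muscle, was at 9.05 and 8.99 against 7.93 and 7.73, 2.28-fold lower (-1.19 ± 0.11, adjusted p = 0.000846). The groups did not overlap for these genes, and the calls remained with each array left out.

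Hspb8 (HSP22), which works with Bag3 and is made in many tissues besides muscle, was at 9.53 and 9.38 against 9.26 and 8.90 (-0.38 ± 0.16, adjusted p = 0.0877). Its difference was -0.56 without K5-Cre replicate 2 and -0.20 without replicate 6. Hspb3 was too dim for the main test, at 7.38 and 7.36 against 6.79 and 6.87. Beside these genes, the skeletal muscle markers fell (median -3.99), and 0 of 5 smooth muscle markers passed under limma (0 at an unadjusted p under 0.05). The smooth muscle markers were split within the K5-Cre group, all 5 being higher on replicate 2 than on replicate 6 by a median of 1.92. Adipocyte and endothelial markers were higher on replicate 2 for 4 of 5 each (medians 0.17 and 0.13). Most skeletal muscle markers went the other way, 8 of 11 being higher on replicate 6 (median 0.27). Of the 3 higher on replicate 2, Des was so by 3.01 (10.28 against 7.27). Of the tested small heat shock genes, 3 of 4 were higher on replicate 2 (median 0.28 over the 4), against 44.6% of all genes tested. These were Hspb7 by 0.42, Hspb8 by 0.36 and Hspb2 by 0.20, while Hspb6 differed by less than 0.1. The part of any of these cell types in this was not tested.

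The authors' deposited table keeps clusters with a 4-fold or larger change against no K5-Cre replicate 1 on any array. It holds 1396 of the 35557 clusters. The array had 97 clusters that name 1 of these genes alone and 10 that list 1 with another gene. Of these, 1 was in the authors' table, that of Hspb6. That table places it on mouse build mm9 at chr7:31338040-31340462, plus strand, with 28 probes. Its linear signal there was 2053.1 and 2089.3 on no K5-Cre replicates 1 and 3 and 299.44 and 290.28 on K5-Cre replicates 2 and 6. The authors' folds against no K5-Cre replicate 1 in the same deposited table were 6.86 and 7.07, both lower in K5-Cre. On the log2 scale these were -2.78 and -2.82. The group means of the log2 values used here differed by -2.98, and the source of this gap was not tested.

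Of 19 tested constitutive cytosolic genes, 11 fell (57.9%), 1 rose (5.26%) and 7 did not pass. Among all genes tested 38.8% fell and 25.2% rose. Hspa8 (HSC70), the HSP70 that every cell makes, was at 13.09 and 13.09 without and 13.003 and 13.04 with K5-Cre (-0.07 ± 0.06, adjusted p = 0.405). Its sign turned with scaling: the difference was 0.0038 with arrays at the same median, 0.05 after quantile normalization and 0.12 with arrays at the same median of the tested genes. Hspa4, an HSP110-type exchange factor, was at 11.06 and 11.06 against 10.72 and 10.67 (-0.37 ± 0.09, adjusted p = 0.0199). It did not pass after leaving out no K5-Cre replicate 1 (adjusted p = 0.249) or 3 (0.248), nor with arrays at the same median of the tested genes (0.147).

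The lowest constitutive difference was that of Hspa12b, a distant HSP70 relative of endothelial cells, at 8.89 and 8.78 without and 7.56 and 7.13 with K5-Cre (-1.49 ± 0.17, 2.82-fold lower, adjusted p = 0.00144). Its relative Hspa12a was at 8.15 and 8.20 against 7.41 and 7.39 (-0.77 ± 0.08, adjusted p = 0.00131). Of the endothelial markers, 4 of 5 fell with a median over all 5 of -3.33, and without Hspa12a and Hspa12b the class count was 9 lower of 17 with a median of -0.31. Dnajc21, a J-domain protein of ribosome assembly, was at 9.50 and 9.77 against 8.42 and 8.24, 2.47-fold lower (-1.31 ± 0.14, adjusted p = 0.00129). Dnajc9, which also chaperones histones, was at 8.999 and 8.91 against 7.85 and 8.09 (-0.99 ± 0.12, adjusted p = 0.00205). Dnajb5 was at 8.59 and 8.66 against 8.03 and 7.74 (-0.74 ± 0.13, adjusted p = 0.006). These 5 genes passed with each array left out.

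The only constitutive member that rose was Dnajc5, the cysteine string protein of secretory vesicles, named after its value was seen. It was at 10.80 and 10.71 without and 11.23 and 11.12 with K5-Cre (0.42 ± 0.10, adjusted p = 0.0171). With no K5-Cre replicates 1 and 3 left out in turn, its adjusted p was 0.158 and 0.233. The other members of the class that fell (Hspa14, Dnaja2, Dnajc2, Dnajc24 and Dnajc7) had differences from -0.66 to -0.31 and did not pass when either control was left out, and those that did not pass, Hspa8 included, from -0.24 to 0.35. With arrays at the same median of the tested genes, 6 constitutive genes fell, 2 rose and the class median was -0.13.

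Of the 8 tested mitochondrial genes, 5 fell (Hspd1, Hspe1, Hspa9, Dnaja3 and Dnajc15), 3 did not pass and 0 rose under limma, also at an unadjusted p under 0.05. The share that fell was 62.5%, beside 38.8% of all genes tested, of which 25.2% rose. Hspd1 (HSP60), which forms the folding chamber of the matrix, was at 10.91 and 10.93 without and 10.21 and 9.86 with K5-Cre, 1.86-fold lower (-0.89 ± 0.15, adjusted p = 0.00492). Hspe1 (HSP10), the lid of that chamber, was at 10.59 and 10.60 against 9.88 and 9.95, 1.60-fold lower (-0.68 ± 0.10, adjusted p = 0.00329). These are the genes that share the run of heat shock units shown above, and both lay lower on both K5-Cre arrays. The part of that run in these differences was not tested.

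Hspa9 (mortalin), the HSP70 of the matrix, was at 10.93 and 10.85 against 10.43 and 10.14 (-0.60 ± 0.13, adjusted p = 0.0136). Dnaja3, its J-domain partner, was at 8.85 and 8.74 against 8.33 and 8.40 (-0.43 ± 0.10, adjusted p = 0.0162). Dnajc19, which is tied to the import motor of the inner membrane, was at 9.01 and 9.15 against 8.27 and 8.82 (-0.53 ± 0.20, adjusted p = 0.0685). Its K5-Cre arrays differed by more than the gap to the controls. The difference was -0.26 without K5-Cre replicate 2 and -0.81 without replicate 6. With each array left out, the difference ran from -0.71 to -0.64 for Hspe1 and from -1.07 to -0.71 for Hspd1. Without 1 control, the spread in the fit came from the K5-Cre arrays alone. Fewer genes of the class passed without no K5-Cre replicate 1 or without replicate 3, as did fewer of all genes tested. For Hspe1 the adjusted p was then 0.0738 and 0.0742, for Hspa9 0.145 and 0.102, for Dnaja3 0.191 and 0.11, and for Hspd1 without replicate 3 it was 0.0514. With arrays at the same median of the tested genes, 2 fell and the class median was -0.29.

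Of the 12 endoplasmic reticulum genes, 3 rose (25%), 5 fell (41.7%) and 4 did not pass, shares close to the 25.2% and 38.8% of all genes tested. Dnajb9 (ERdj4), a J-domain protein of the lumen that the unfolded protein response induces, was at 9.02 and 9.07 without and 10.59 and 10.51 with K5-Cre, 2.84-fold higher (1.505 ± 0.10, adjusted p = 0.000339). It had the highest difference of the 58 genes and passed with each array left out. Hspa5 (BiP), the HSP70 of the lumen, was at 11.75 and 11.62 against 12.27 and 12.51, 1.63-fold higher (0.70 ± 0.12, adjusted p = 0.00492). Without no K5-Cre replicate 3 its adjusted p was 0.0552. Dnajb11 (ERdj3), which hands unfolded chains to BiP, was the third that rose and was named after its value was seen, at 9.34 and 9.41 against 9.78 and 10.13 (0.58 ± 0.15, adjusted p = 0.0212), and with no K5-Cre replicates 1 and 3 left out in turn its adjusted p was 0.164 and 0.125.

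Hsp90b1 (GRP94), the HSP90 of the lumen, was at 11.54 and 11.58 without and 11.57 and 11.84 with K5-Cre (0.15 ± 0.12, adjusted p = 0.31), so replicate 2 lay among the controls and replicate 6 above them. Without K5-Cre replicate 2 its difference was 0.28. It passed when arrays were set to the same median of the tested genes, at 0.34 (adjusted p = 0.0487). Of the genes with an ER stress element in the promoter window, Hspa5 thus rose, while Hsp90b1 and Dnajc3 (0.07 ± 0.16, adjusted p = 0.712) did not pass. The sign of Dnajc3 rested on 1 array, its difference being 0.29 without K5-Cre replicate 2 and -0.14 without replicate 6. Dnajb9, the gene that rose furthest, had no match to these letters in its window.

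Among the members that fell, Dnajc1, a J-domain protein of the membrane, was at 9.47 and 9.50 against 8.48 and 8.57, 1.95-fold lower (-0.96 ± 0.10, adjusted p = 0.00119), and it passed with each array left out. Hspa13, a microsomal HSP70 relative, was at 8.94 and 9.11 against 8.20 and 8.47 (-0.69 ± 0.14, adjusted p = 0.00978), and without no K5-Cre replicate 3 the adjusted p was 0.0869. Dnajb14, a membrane J-domain protein, was at 8.37 and 8.37 against 7.48 and 7.92 (-0.67 ± 0.16, adjusted p = 0.0185), and without no K5-Cre replicates 1 and 3 in turn the adjusted p was 0.0821 and 0.0795. The class median of 0.11 was -0.06 without K5-Cre replicate 6 and 0.26 without replicate 2, so its sign rested on 1 array.

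The arrays of the K5-Cre group differed in the same genes. Of the 12 endoplasmic reticulum members, 10 were higher on replicate 6 than on replicate 2, with a median of 0.25, against 55.4% of all genes tested. Of the 16 listed endoplasmic reticulum partners, 13 were higher on replicate 6, with a median of 0.18. Of the 9 stress-inducible genes, 5 were higher on replicate 2 (55.6%, against 44.6% of all genes tested), with a median of 0.24 over the 9. These were Bag3 and the 4 that rose, by 0.24 to 0.35. For the other 4, replicate 2 minus replicate 6 ran from -0.24 (Hsph1) to -0.01 (Dnajb4). Macrophage markers were higher on replicate 6 for 5 of 6 (median 0.84), and all 6 basal and all 4 tested suprabasal keratinocyte markers were higher on replicate 2 (medians 0.18 and 0.30). The part of these markers in the split was not tested.

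**Figure D3:**
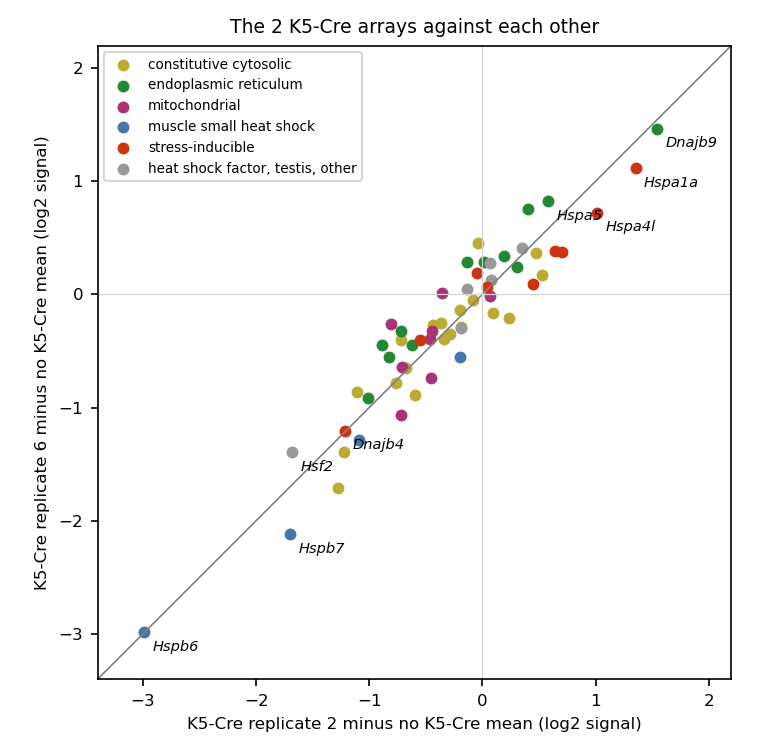
Log2 signal of K5-Cre replicate 2 (horizontal axis) and of replicate 6 (vertical axis), each minus the no K5-Cre mean, with 1 point per tested gene coloured by class and a line of equality. Of the endoplasmic reticulum genes 10 of 12 lie above the line, the side of replicate 6. Of the 9 stress-inducible genes 5 lie below it, namely Bag3 and the 4 that rose.

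Of the 9 testis members, which are known mainly from male germ cells, 2 were bright enough to test. Hspb9 was at 7.45 and 7.56 without and 7.86 and 7.91 with K5-Cre (0.38 ± 0.09, adjusted p = 0.016), close to the filter level on all arrays, and its adjusted p was 0.187 and 0.095 without no K5-Cre replicates 1 and 3 in turn. Hspa2, the HSP70 needed for male meiosis and also made in other tissues, was at 8.12 and 8 against 7.87 and 7.76 (-0.24 ± 0.10, adjusted p = 0.0817). With each array left out its difference ran from -0.30 to -0.18. Of the genes in no class, Hspbap1 (0.17 ± 0.11), Dnajc4 (0.10 ± 0.09) and Dnajc25 (-0.05 ± 0.11) were tested and did not pass. With arrays at the same median of the tested genes Hspbap1 and Dnajc4 passed (adjusted p = 0.0346 and 0.0408), and Dnajc25 had a difference of 0.14.

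The 16 untested members had values between 4.42 and 8.31. Of these, 5 were higher and 6 lower on both K5-Cre arrays than on both others, and 5 overlapped. Among the 11255 brighter genes tested, 35.6% were higher and 50.4% lower in this way. The differences of the 16 ran from -1.64 to 0.45. The lowest was that of Dnajc18, at 8.20 and 8.31 without and 6.34 and 6.90 with K5-Cre. They were left out of the main test. In the limma fit without a filter, 11 of the 74 members were higher and 32 lower at the same threshold. Of all 19938 genes in that fit, 6145 were higher and 5567 lower. Dnajc18 had an adjusted p of 0.0014 there.

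For 8 members the array held several clusters, and for 6 of these (Dnaja1, Hsp90aa1, Hspa8, Hspb1, Hspd1 and Hspe1) the brightest cluster was numbered among clusters of genes on another chromosome. Such genes have near-identical copies elsewhere in the genome, so the source of the signal is uncertain. The clusters numbered beside the gene's own neighbours gave the same direction for each of the 6, at 0.52 for Hspb1 (adjusted p = 0.0215), -1.21 for Hspd1 (0.00094), -0.70 for Hspe1 (0.00285), -0.51 for Dnaja1 (0.0343), 0.06 for Hsp90aa1 and -0.09 for Hspa8. These p-values come from a limma fit that held every cluster of the members. No member's call changed when these clusters stood for the genes. Clusters shared by Hspa8 and small nucleolar RNA genes of its introns were 0.70 and 0.72 higher in K5-Cre, unlike the Hspa8 clusters. Bright clusters shared by Dnajb6 and Gm4247 had differences from -0.30 to -0.24. The dim cluster of Dnajb6 alone, which stood for it, had 0.16. Dnajc13, a J-domain protein of endosomes, had 15 clusters, which were 0.20 to 0.48 higher in K5-Cre, and 0 passed under limma (lowest adjusted p 0.063, with 1 cluster at an unadjusted p under 0.05). All 15 were highest on K5-Cre replicate 6. The brightest was at 11.04 and 11.12 without K5-Cre, 11.04 on replicate 2 and 11.53 on replicate 6. Its difference was -0.039 without K5-Cre replicate 6 and 0.45 without replicate 2.

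**Figure D4:**
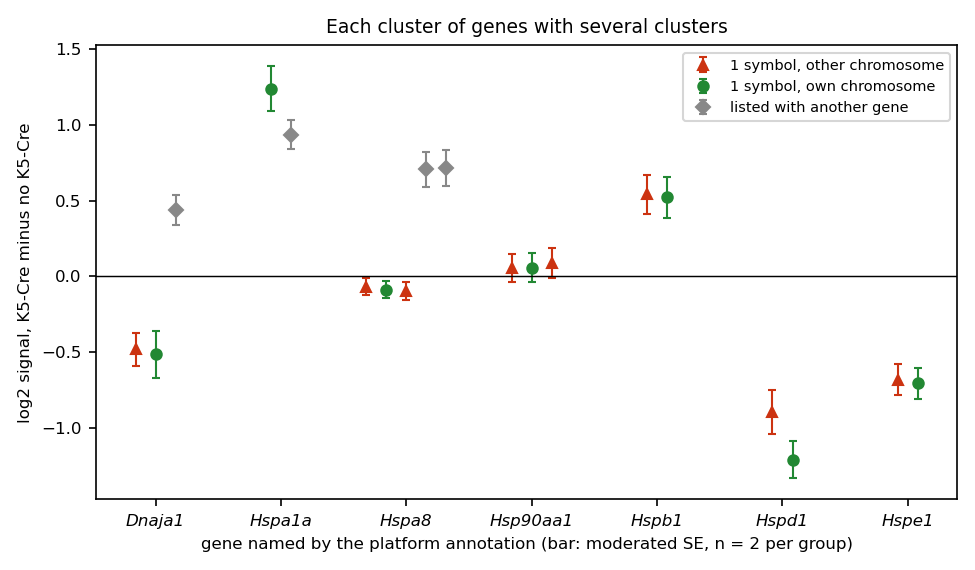
Log2 difference, K5-Cre minus no K5-Cre, with its standard error for each cluster of 7 members, by whether the cluster is numbered among genes of its own chromosome, of another one, or is listed with another gene. Own and other clusters of a gene lie on the same side of 0, with Hspb1 above and Hspd1 and Hspe1 below. The cluster shared by Mir207 and Dnaja1 (0.44) lies opposite to those of Dnaja1 alone. Clusters shared by Hspa8 and small nucleolar RNA genes (0.70 and 0.72) lie opposite to those of Hspa8 alone.

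The partners of these chaperones were read from 4 lists of 57 genes, 56 of them tested. Of the 16 folding and unfolded protein response genes of the endoplasmic reticulum, 11 rose, 1 fell and 4 did not pass, with a median of 0.54. That is 68.8% higher and 6.25% lower, beside 25.2% and 38.8% of all genes tested. Sdf2l1, which works with ERdj3, was 1.24 ± 0.25 higher (adjusted p = 0.00995), Hyou1, the exchange factor for BiP, 1.09 ± 0.12 (0.00129), Creld2 1.001 ± 0.13 (0.00254) and the disulfide isomerase Pdia4 0.89 ± 0.24 (0.0242). Canx, the membrane lectin chaperone calnexin, was the gene that fell (-0.27), named after its value was seen, with an adjusted p of 0.248 and 0.275 when the controls were left out in turn and 0.0709 without the mean-variance trend. Without no K5-Cre replicate 1 the adjusted p was 0.0522 for Sdf2l1 and 0.0937 for Pdia4, and without replicate 3 it was 0.0805 for Pdia4.

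Of 12 tested chaperonin and prefoldin genes, whose products fold actin and tubulin, 9 fell (75%), 1 rose (8.33%) and 2 did not pass (median -0.43). Among all genes tested 38.8% fell and 25.2% rose. The prefoldin subunit gene Vbp1 was -0.99 ± 0.16 (adjusted p = 0.00485), the chaperonin subunit Cct4 -0.97 ± 0.10 (0.00102), Cct6a -0.67 ± 0.10 (0.00333) and Pfdn2 -0.66 ± 0.10 (0.00412), and Pfdn1 rose by 0.56, named after its value was seen (adjusted p 0.0918 and 0.113 with the controls left out in turn). Without no K5-Cre replicates 1 and 3 in turn the adjusted p was 0.0876 and 0.0588 for Cct6a and 0.0712 and 0.0909 for Pfdn2. Of 21 cytosolic co-chaperones and other chaperones, 11 fell (52.4%), 2 rose (9.52%) and 8 did not pass (median -0.35). Cryab, the alpha-B crystallin of muscle and lens, was -1.73 ± 0.15 (adjusted p = 0.000627), Serpinh1, the collagen chaperone HSP47, was -1.69 ± 0.11 (0.000341) and the cyclophilin Ppid was -0.96 ± 0.11 (0.00157). Cryaa, the lens alpha-A crystallin, was 0.86 ± 0.20 higher (0.017), but its no K5-Cre mean of 7.27 was below the filter, so it was tested through the K5-Cre group, and its adjusted p was 0.0653 and 0.0622 without the controls in turn. Serpinh1 lay lower beside the 6 fibroblast markers (median -2.98) and Cryab beside the skeletal muscle markers, and the part of those cells was not tested.

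Of 7 mitochondrial folding and protease genes, 1 rose, 2 fell and 4 did not pass (median 0.00). Grpel1, the exchange factor of Hspa9, was 0.63 ± 0.15 higher (adjusted p = 0.0162) while Hspa9 was lower, Trap1, the HSP90 of mitochondria, was -0.57 ± 0.10 (0.00656) and the protease Clpp was -0.43 ± 0.10 (0.0158). Without no K5-Cre replicates 1 and 3 in turn the adjusted p was 0.0964 and 0.133 for Grpel1, 0.0968 and 0.124 for Trap1, and 0.191 and 0.183 for Clpp. Over all 4 lists 15 rose (26.8%) and 23 fell (41.1%), beside 25.2% and 38.8% of all genes tested. With no K5-Cre replicate 1 or 3 left out, both counts were lower, as were those of all genes tested.

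**Figure D5:**
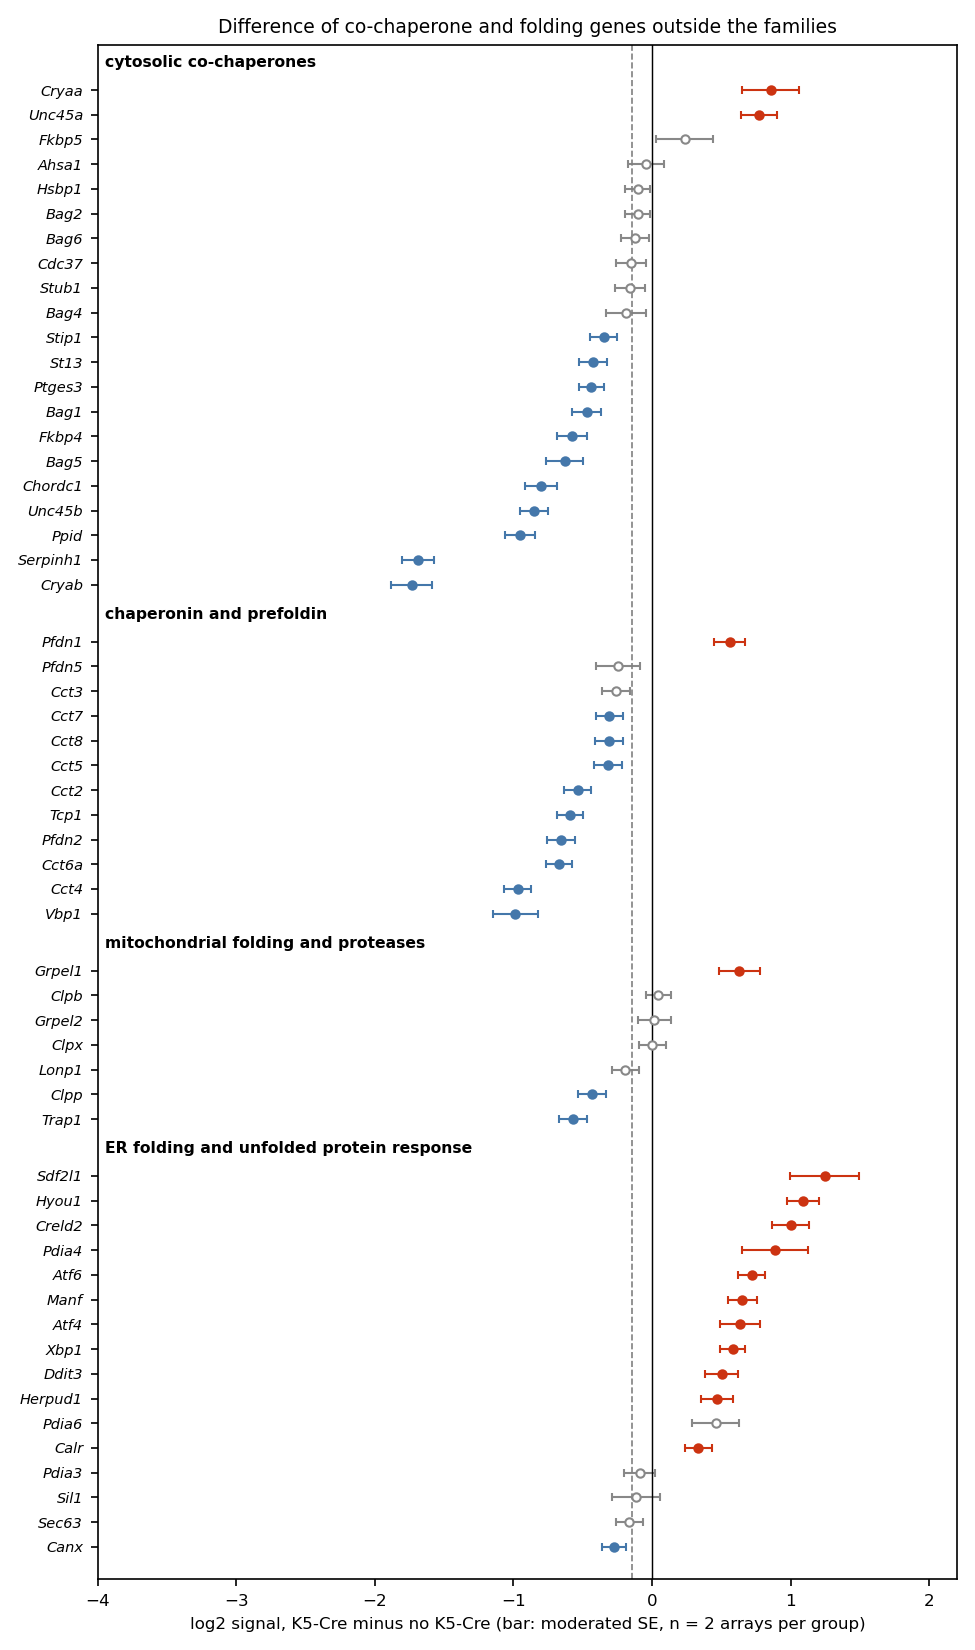
Log2 difference, K5-Cre minus no K5-Cre, with its standard error for the 56 tested partner genes by list. The endoplasmic reticulum list lies mostly above 0 with a median of 0.54, and the chaperonin and prefoldin list mostly below it with a median of -0.43.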

How the data were processed

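The deposited series table holds log2 values per transcript cluster for 4 Affymetrix MoGene 1.0 ST arrays. With a normalization not given in the sources used here, the values were taken as deposited. A second deposited table gives, per the file headers, a linear signal, a log2 signal centred on the no K5-Cre mean and the authors' fold (absolute, log2 and as a signed score, which was not used) against no K5-Cre replicate 1 for 1396 clusters, kept above the 20th percentile and at least 4-fold, on build mm9. Genes were named from clusters with exactly 1 symbol (21789 of 35557; 1621 had several, 12147 none). Genes with a mean over the 4 arrays above the median of all clusters (7.61) were tested with limma 3.58.1 in R 4.3.3 (lmFit, eBayes with trend), Benjamini-Hochberg adjusted over 11255 genes. An exact permutation test of 2 against 2 arrays cannot go below p = 0.333, two-sided. The number of arrays limits the precision. The fit was tested on simulated data.

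The members and gene lists were chosen with earlier results of these data known. Named were every stress-inducible, heat shock factor and muscle member; of each other class the 5 tested members with the largest absolute difference and Hspa8, Hspa4, Hspa5, Hsp90b1, Hspd1, Hspe1 and Hspa9; and of each partner list the 4 past the threshold with the largest absolute difference. Others are marked in the text. Alternatives were 2 planned scalings, 2 filters, 2 variance models, the mean over a gene's clusters and each array left out. Chosen after seeing the data were scaling to the median of tested genes and the use of own-locus clusters. Promoters are from RefSeq on GRCm38.p6.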

Additional observations from a re-analysis of the deposited data

How the results depend on the processing

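No paired analysis was possible because the groups compared share no replicate numbers. With each array shifted to the same median, with eBayes without the trend or robust, with the mean over a gene's clusters and with own-locus clusters, all 21 counts and class medians stayed within 1.5 times or within the spread of the values reported. Quantile normalization gave 2 constitutive and 5 endoplasmic reticulum genes higher, 3 mitochondrial genes lower and a mitochondrial median of -0.33. Without a filter, 6145 of all genes were higher and the muscle median was -1.19. With the filter at the 75th percentile, which tests fewer genes, 1508 genes were higher and 2026 lower, as were 13 of the chaperone genes, 4 constitutive, 2 endoplasmic reticulum and 3 mitochondrial genes; the medians were -0.19 (constitutive), 0.27 (endoplasmic reticulum), -0.68 (mitochondrial) and -1.91 (muscle). With arrays at the same median of the tested genes, an alternative chosen after seeing the data, the chaperone genes gave 15 higher and 17 lower, the constitutive class 2 and 6 (median -0.13), 6 endoplasmic reticulum genes were higher (median 0.30), 2 mitochondrial genes lower (median -0.29), 1 stress-inducible gene lower (median 0.46), the muscle median was -1.36 and 14 partners were lower. The cause of these shifts was not tested.

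Leaving out each array in turn, all genes gave 1463 to 3716 higher and 2368 to 5454 lower, and the chaperone genes 3 to 16 higher and 11 to 32 lower. By class, the ranges were 2 to 5 higher and 1 to 2 lower for stress-inducible genes (median 0.19 to 0.44), 0 to 3 and 5 to 13 for constitutive genes (median -0.35 to -0.29), 0 to 7 lower for mitochondrial genes (median -0.50 to -0.36), 1 to 7 higher and 1 to 5 lower for the endoplasmic reticulum (median -0.060 to 0.26), and 3 to 4 lower for muscle (median -1.70 to -1.40). Partners gave 2 to 17 higher and 7 to 29 lower. In these fits the lone array of a group is assumed to vary like the others, so that without a K5-Cre array the spread came from the no K5-Cre arrays alone. Of the 9 members that rose, 3 kept their call in every setting in which they were tested (Hspa1a, Hspa4l and Dnajb9), as did 11 of the 27 that fell; 7 of these 14, Hspa4l among them, were too dim to be tested at the 75th percentile. The sign turned in some setting for 10 of the 58 tested members, of which 0 had passed. They were Dnajc13, Hspbp1, Dnaja4, Dnajc17, Dnajc3, Dnajc11 and Dnajc30 and, with values, Dnajc25 (0.024 with arrays at the same median, 0.084 by quantile normalization, 0.14 at the same median of the tested genes, and between -0.14 and 0.045 with each array left out), Hspa8 (0.0038, 0.049 and 0.12 under those 3 scalings) and Hsph1 (-0.051 without K5-Cre replicate 6). Signal near the filter level limits Hspb9 and Hspa4l.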
